A study of Danio rerio with 9 samples.

Results

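Red blood cell genes were examined in RNA sequencing of adult zebrafish ventricles. The set holds 10 gene names, which were chosen by name with earlier results from these same libraries known: the adult globins *hbaa1*, *hbaa2*, *hbba1* and *hbba2*, and the erythroid genes *alas2*, *slc4a1a*, *cahz*, *epb41b*, *gata1a* and *tfr1a*. The name *hbba1* belongs to 2 gene IDs, so the set has 11 of the 30628 genes in the deposited table. All 11 passed the filter on low counts and are among the 21216 genes tested. Because the genes were picked with their levels known, their differences between genotypes are given as descriptions, and no p-value of a member is printed. Statements below on which members passed a threshold are descriptions as well.

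The study compared 3 genotypes, with 3 libraries each and 5 pooled ventricles per library, from fish of 6 months of age. The *Tg(cmlc2:tfeb)* fish carry a transgene that expresses *tfeb*, a transcription factor gene of autophagy and lysosomes, from the cardiomyocyte promoter *cmlc2*, so red blood cells are not the cells in which the transgene is driven. The *mtor xu015/+* fish carry 1 mutant copy of *mtor*, the gene of the mTOR kinase, in all their cells. The reference was a single group of 3 WT libraries from siblings, whose line the labels do not give and whose columns carry a tag of 9 months although the methods give 6 months for every genotype. A difference between genotypes can therefore not be told apart from one between families. Total estimated counts were between 35440229 and 45273885 per library.

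Red blood cells of fish keep their nucleus and their mRNA, so that blood inside or around a dissected heart chamber brings globin transcripts into a tissue library. Each hemoglobin molecule is built from alpha and beta globin chains and from heme, which is made in the mitochondria from glycine and delivered iron. Developing red cells take up iron through transferrin receptors, and the transcription factor Gata1 switches on globin, heme and membrane genes together. Zebrafish carry their alpha and beta globin genes side by side, with the adult genes next to the embryonic and larval ones, and several copies are nearly identical. How the authors assigned reads that fit more than 1 copy is not stated, so the counts of single globin copies are uncertain. In such bulk tissue, a different number of red cells and a different amount of RNA per red cell cannot be told apart.

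The manipulated genes were looked at first. *tfeb* had normalized counts of 22103, 26435 and 8783 in *Tg(cmlc2:tfeb)*, 1733, 2126 and 1586 in *mtor xu015/+*, and 2169, 1654 and 1707 in WT. *mtor* had 1900, 1904 and 1871 in *Tg(cmlc2:tfeb)*, then 6165, 7294 and 5389 in *mtor xu015/+*, and 6601, 3970 and 2522 in WT. It was called lower in *Tg(cmlc2:tfeb)* against WT (-1.21, edgeR, Benjamini-Hochberg adjusted p = 0.0153) and was not lower in the libraries labelled *mtor xu015/+*, so its count does not check that label, and the name *mtor xu015/+* stands below for the libraries so labelled. A normalized count is a count brought to the average library size after TMM scaling.

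The globin members and most of their erythroid companions stood lowest in *mtor xu015/+*. Against WT, 2 of the 5 globin genes were higher in every *Tg(cmlc2:tfeb)* library, while the other 3 overlapped with WT. In *mtor xu015/+* against WT, all 11 genes had a negative log2 fold change, between -1.04 and -0.22, with a median of -0.56. For 9 of the 11, every *mtor xu015/+* library was below every WT library, a pattern found in 6.77% of all tested genes. In *Tg(cmlc2:tfeb)* against WT, the log2 fold changes were between -0.06 and 1.72 with a median of 0.36, and 5 genes were higher in every *Tg(cmlc2:tfeb)* library, as were 21.1% of all tested genes. *Tg(cmlc2:tfeb)* against *mtor xu015/+* gave the widest gap, with a median of 1.03 and 9 genes without overlap, against 21.3% of all tested genes. Over all tested genes the median log2 fold change was 0.00 in each of the 3 comparisons. The comparisons share libraries and are given side by side only.

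**Figure D1:**
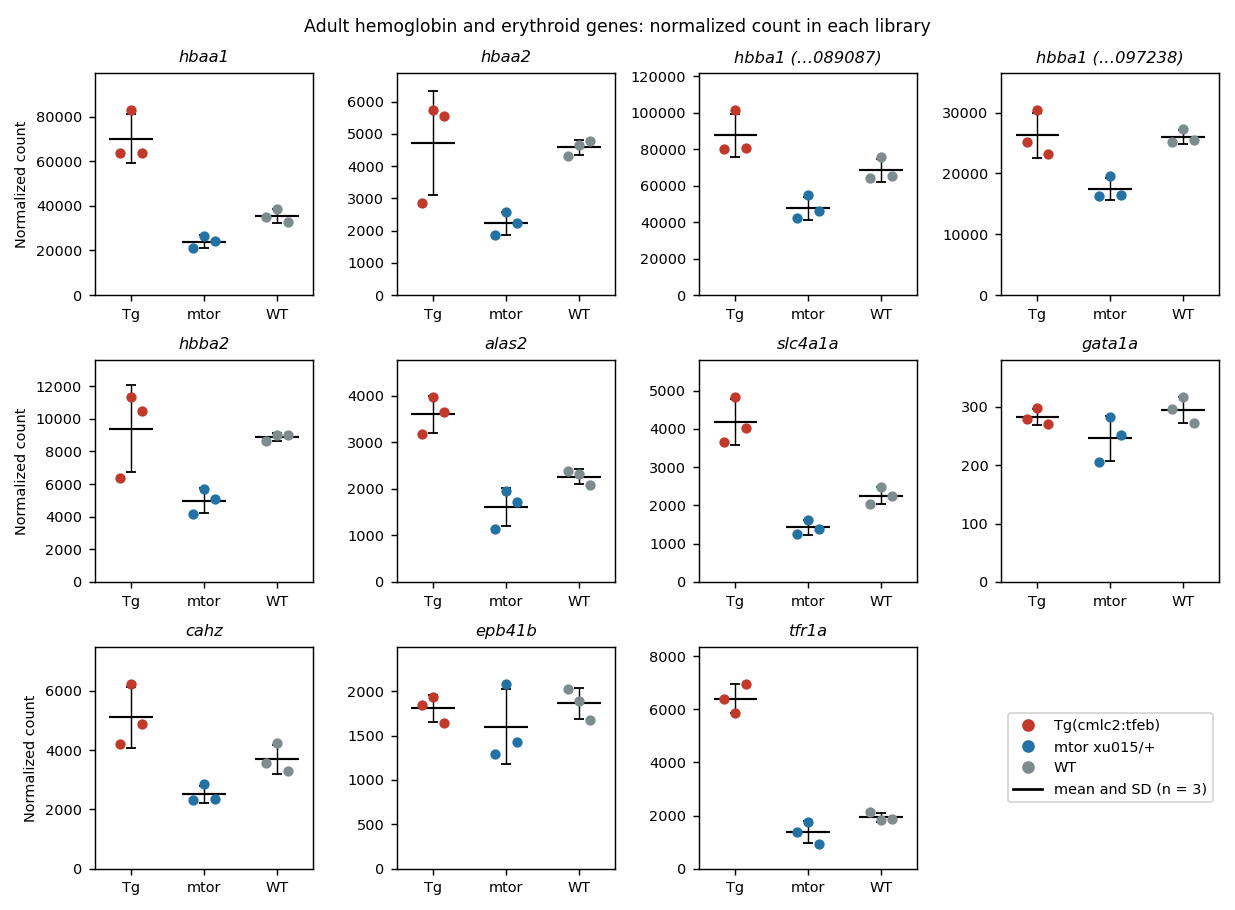
Normalized count (vertical axes, from 0) of the 11 genes in each of the 9 libraries, with *Tg(cmlc2:tfeb)* left, *mtor xu015/+* in the middle and WT right. Points are libraries, and lines and bars are the mean and SD of 3 libraries. For *hbaa1* the *Tg(cmlc2:tfeb)* libraries lie between 63671 and 82839, above all others, whereas the 3 groups overlap for *gata1a* and *epb41b*.

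A gene was called where its adjusted p was under 0.05 and its change at least 1.5-fold, by the quasi-likelihood test of edgeR, adjusted by Benjamini-Hochberg over all 21216 genes. In *Tg(cmlc2:tfeb)* against WT, 4 of the 11 members were called higher and 0 lower, beside 7.41% of all tested genes called higher and 7.49% called lower. An unadjusted p under 0.05 was found for 6 members and for 35.7% of all tested genes. The 4 called members were *hbaa1*, *slc4a1a*, *alas2* and *tfr1a*. The *alas2* call was lost without any 1 of the 3 WT libraries and without *Tg(cmlc2:tfeb)* replicate 2 or 3. In *mtor xu015/+* against WT, edgeR called 0 of the 11, beside 0.0141% of all tested genes called lower and 0.00943% called higher. There 9 members had an unadjusted p under 0.05, as did 7.86% of all tested genes. DESeq2 called 3 members (*hbaa2*, *hbba2* and *slc4a1a*) and 0.321% of all tested genes, and limma-voom called 0 of either. In *Tg(cmlc2:tfeb)* against *mtor xu015/+*, 9 were called higher and 0 lower, beside 8.09% and 7.95% of all tested genes. The same 9 members had an unadjusted p under 0.05, as did 37.5% of all tested genes.

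**Figure D2:**
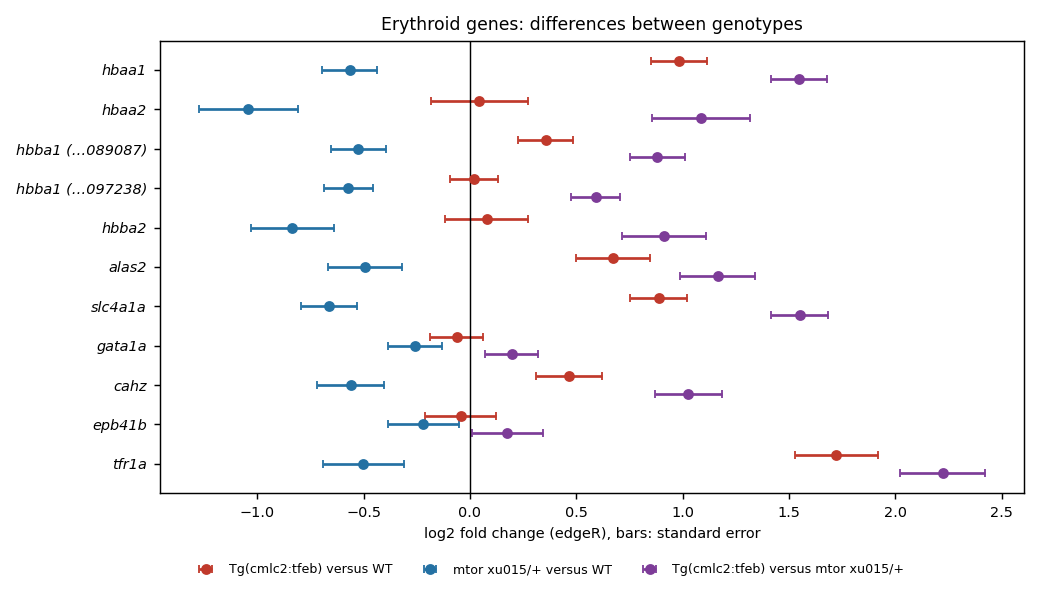
Log2 fold change (horizontal axis) of each of the 11 genes in the 3 comparisons, with the standard error from edgeR as bars. All 11 values of *mtor xu015/+* against WT lie left of 0, and *tfr1a* lies farthest right, at 1.72 for *Tg(cmlc2:tfeb)* against WT and 2.22 for *Tg(cmlc2:tfeb)* against *mtor xu015/+*.

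The alpha globin gene *hbaa1* (ENSDARG00000097011, chromosome 3 from 55100045 to 55100936 in GRCz11) showed the largest gap among the globin members between *Tg(cmlc2:tfeb)* and WT. Its normalized counts were 63671, 82839 and 63784 in *Tg(cmlc2:tfeb)*, 21041, 26675 and 24192 in *mtor xu015/+*, and 35124, 38744 and 32574 in WT. The 3 genotypes formed 3 separate ranges. Its log2 fold change against WT was 0.98 in *Tg(cmlc2:tfeb)* (standard error 0.13, 1.98-fold) and -0.57 in *mtor xu015/+* (standard error 0.13).

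The other alpha globin member, *hbaa2* (ENSDARG00000069735, chromosome 3 from 55093581 to 55094399), behaved differently in *Tg(cmlc2:tfeb)*. It had normalized counts of 2869, 5733 and 5558 in *Tg(cmlc2:tfeb)*, 1869, 2562 and 2234 in *mtor xu015/+*, and 4313, 4653 and 4765 in WT. Replicate 1 of *Tg(cmlc2:tfeb)* lay below and replicates 2 and 3 above all WT libraries, and the log2 fold change was 0.04 (standard error 0.23). Without that replicate 1 it was 0.31, and without replicate 2 it was -0.12. All *mtor xu015/+* libraries were low, at -1.04 on the log2 scale against WT (standard error 0.23), the most negative of the 11 members.

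Of the beta globins, *hbba2* (ENSDARG00000069734, chromosome 3 from 55091230 to 55092051) lies next to *hbaa2* and shared its pattern. Its normalized counts were 6343, 11334 and 10470 in *Tg(cmlc2:tfeb)*, 4168, 5699 and 5074 in *mtor xu015/+*, and 8615, 9020 and 9016 in WT. Again *Tg(cmlc2:tfeb)* replicate 1 was the low one of its group and fell below WT, and all *mtor xu015/+* libraries were below all others. Its log2 fold change against WT was 0.08 in *Tg(cmlc2:tfeb)* (standard error 0.20) and -0.83 in *mtor xu015/+* (standard error 0.20). The *Tg(cmlc2:tfeb)* value was 0.30 without *Tg(cmlc2:tfeb)* replicate 1 and -0.08 without replicate 2.

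Both genes named *hbba1* encode beta globin chains. The copy ENSDARG00000089087 (chromosome 3 from 55103445 to 55104310) had normalized counts of 80288, 101319 and 80860 in *Tg(cmlc2:tfeb)*, 41953, 54628 and 46007 in *mtor xu015/+*, and 64055, 75588 and 65479 in WT. Its 3 genotypes did not overlap, and the log2 fold changes against WT were 0.36 in *Tg(cmlc2:tfeb)* and -0.52 in *mtor xu015/+* (standard error 0.13 each). The copy ENSDARG00000097238 (chromosome 3 from 55098457 to 55099272) had 25243, 30412 and 23196 in *Tg(cmlc2:tfeb)*, 16231, 19602 and 16527 in *mtor xu015/+*, and 25119, 27264 and 25429 in WT. For this copy *Tg(cmlc2:tfeb)* and WT overlapped, at a log2 fold change of 0.02 (standard error 0.11, and -0.10 to 0.10 with 1 library left out), and the *mtor xu015/+* libraries were lower, at -0.57 against WT (standard error 0.11). Its call in *Tg(cmlc2:tfeb)* against *mtor xu015/+* (0.59, standard error 0.11) was lost without *mtor xu015/+* replicate 1 or 3 and without *Tg(cmlc2:tfeb)* replicate 2.

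Next to these genes lies *si:ch211-5k11.8* (ENSDARG00000079078), for which RefSeq gives the synonym *hbaa1.2* and which is therefore counted here as a sixth adult globin gene, though it is not among the 10 names. It had normalized counts of 49974, 65841 and 51029 in *Tg(cmlc2:tfeb)*, 33312, 43342 and 38178 in *mtor xu015/+*, and 49579, 59806 and 52560 in WT. *Tg(cmlc2:tfeb)* and WT overlapped (log2 fold change 0.04, standard error 0.14, edgeR, Benjamini-Hochberg adjusted p = 0.848). All *mtor xu015/+* libraries were below all WT libraries (-0.50, standard error 0.14, edgeR, Benjamini-Hochberg adjusted p = 0.485). Thus 4 of the 6 adult globin genes had log2 fold changes from 0.02 to 0.08 in *Tg(cmlc2:tfeb)* against WT, and the other two had 0.36 and 0.98.

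**Figure D3:**
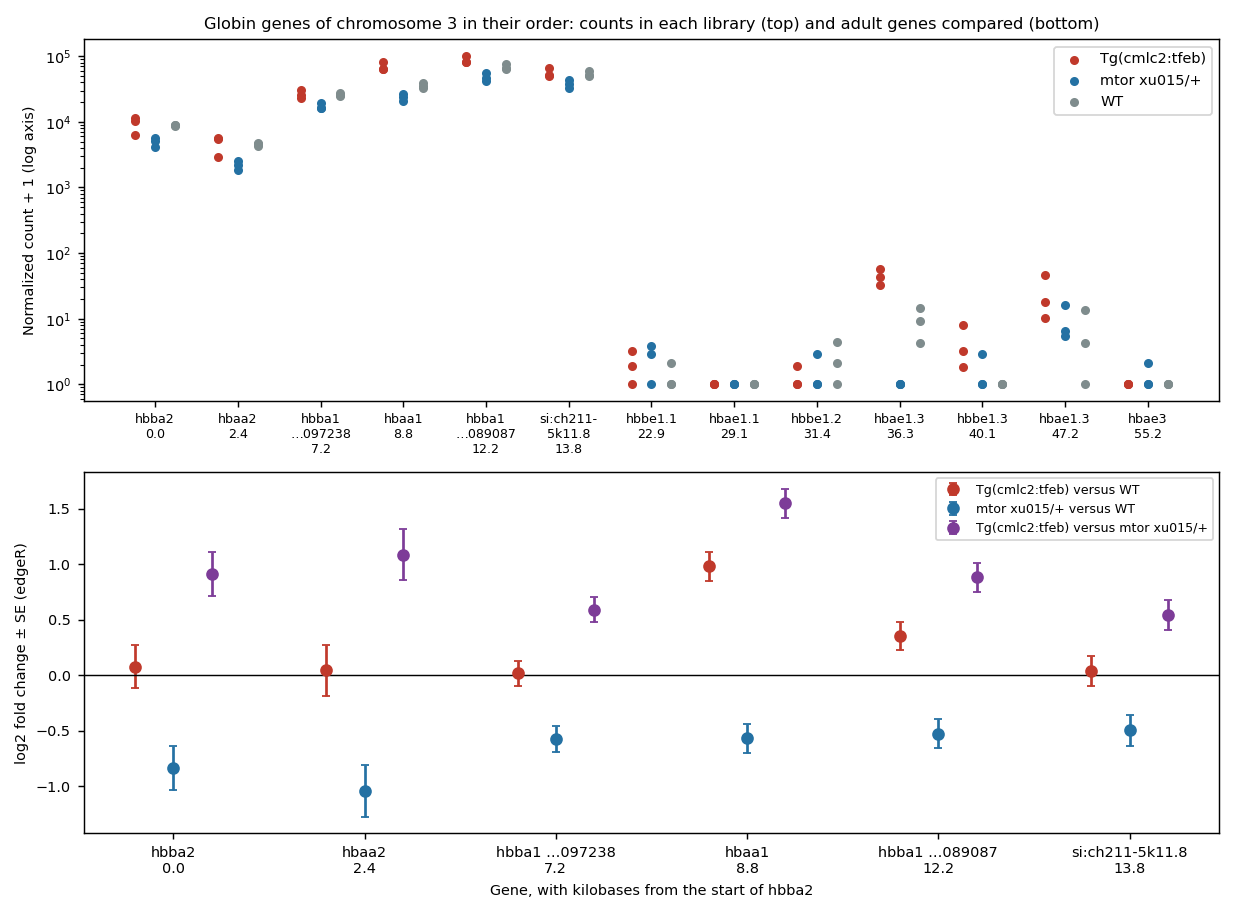
Globin genes of chromosome 3 in their order, each labelled with its distance in kilobases from the start of *hbba2*. The top panel plots the normalized count plus 1 in each library on a log axis, and the bottom panel the log2 fold change with its standard error for the 6 adult genes. In *Tg(cmlc2:tfeb)* against WT, *hbaa1* at 8.8 kilobases stands at 0.98 while its neighbour *hbba1* at 7.2 kilobases stands at 0.02.

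Ratios within a library do not depend on its normalization, and they describe the mix of globin copies in the estimated counts. They do depend on how reads shared by near-identical copies were assigned, which is not stated and whose part was not tested. For each count of *si:ch211-5k11.8* there were 1.27, 1.26 and 1.25 counts of *hbaa1* in *Tg(cmlc2:tfeb)*, 0.632, 0.615 and 0.634 in *mtor xu015/+*, and 0.708, 0.648 and 0.620 in WT. All *Tg(cmlc2:tfeb)* libraries were above the others and close to each other, while *mtor xu015/+* and WT overlapped. The ratio of *hbaa1* to *hbaa2* was 22.2, 14.5 and 11.5 in *Tg(cmlc2:tfeb)*, 11.3, 10.4 and 10.8 in *mtor xu015/+*, and 8.14, 8.33 and 6.84 in WT. Here both lines lay above WT, and *Tg(cmlc2:tfeb)* above *mtor xu015/+*, with *Tg(cmlc2:tfeb)* replicate 1 far above the rest.

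Among the *hbba1* copies, the ratio of ENSDARG00000089087 to ENSDARG00000097238 was 3.18, 3.33 and 3.49 in *Tg(cmlc2:tfeb)*, 2.58, 2.79 and 2.78 in *mtor xu015/+*, and 2.55, 2.77 and 2.57 in WT. *Tg(cmlc2:tfeb)* was again apart from both other groups, which overlapped. Summed over the 6 adult genes, alpha globin counts per beta globin count were 1.04, 1.08 and 1.05 in *Tg(cmlc2:tfeb)*, 0.902, 0.908 and 0.956 in *mtor xu015/+*, and 0.910, 0.923 and 0.900 in WT. As in all ratios to adult globin counts, these 6 genes were the total of which the *hbba2* and *hbaa2* pair made up 4.03%, 5.74% and 6.82% of adult globin counts in *Tg(cmlc2:tfeb)*, 5.09%, 5.42% and 5.53% in *mtor xu015/+*, and 6.92%, 6.36% and 7.26% in WT. In *mtor xu015/+* the share of this pair was below every WT library, whereas *Tg(cmlc2:tfeb)* overlapped with both.

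**Figure D4:**
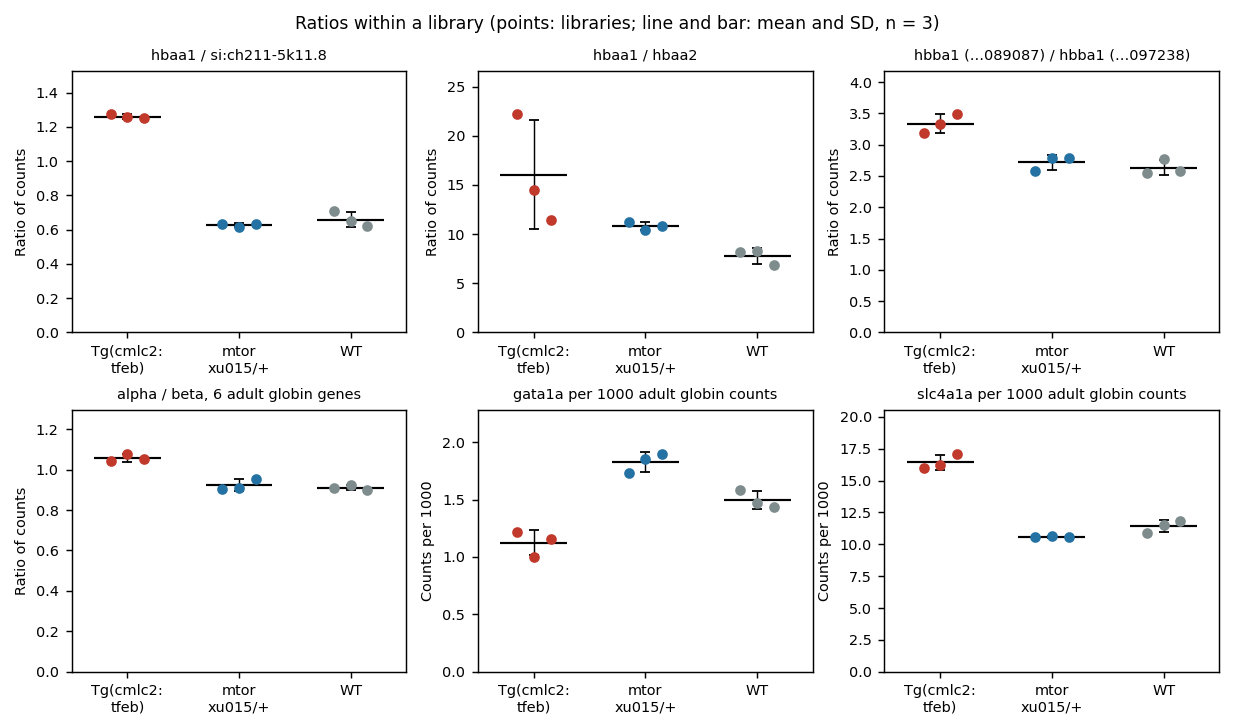
Ratios of counts within each library, from 0 on every vertical axis, with *Tg(cmlc2:tfeb)* left, *mtor xu015/+* in the middle and WT right. Points are libraries, and lines and bars are the mean and SD of 3. The ratio of *hbaa1* to *si:ch211-5k11.8* averages 1.26 in *Tg(cmlc2:tfeb)*, 0.627 in *mtor xu015/+* and 0.659 in WT, and *gata1a* per 1000 adult globin counts averages 1.12 in *Tg(cmlc2:tfeb)*, 1.83 in *mtor xu015/+* and 1.497 in WT.

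As a share of each library, the 15 genes whose names begin with hba or hbb took 0.477%, 0.617% and 0.463% of all counts in *Tg(cmlc2:tfeb)*, 0.209%, 0.260% and 0.225% in *mtor xu015/+*, and 0.322%, 0.376% and 0.340% in WT. The 3 genotypes did not overlap. In *Tg(cmlc2:tfeb)* against WT, *hbaa1* and the *hbba1* copy ENSDARG00000089087 had log2 fold changes of 0.98 and 0.36. The other 3 globin members had 0.02 to 0.08. The higher share there thus came largely from 2 copies, and the counts of single copies are uncertain. Mean shares were 0.519% ± 0.0854 in *Tg(cmlc2:tfeb)*, 0.231% ± 0.0258 in *mtor xu015/+* and 0.346% ± 0.0278 in WT (SD, n = 3 each). The 95% Wilson interval of a single library was at most 0.00234 percentage points to either side, for counting error alone. With *si:ch211-5k11.8* and *zgc:163057* added, an addition made after seeing the data, the means were 0.665%, 0.324% and 0.477% for *Tg(cmlc2:tfeb)*, *mtor xu015/+* and WT.

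Heme synthesis in red cells begins with the enzyme encoded by *alas2* (ENSDARG00000038643, chromosome 8 from 21353878 to 21369028), which is defective in the zebrafish anemia mutant *sauternes*. Its normalized counts were 3178, 3968 and 3642 in *Tg(cmlc2:tfeb)*, 1146, 1948 and 1715 in *mtor xu015/+*, and 2383, 2310 and 2083 in WT. No 2 genotypes overlapped, with log2 fold changes against WT of 0.67 in *Tg(cmlc2:tfeb)* and -0.49 in *mtor xu015/+* (standard error 0.17 each). The *mtor xu015/+* value was -0.30 without *mtor xu015/+* replicate 1, the lowest library.

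The red cell anion exchanger gene *slc4a1a* (ENSDARG00000012881, chromosome 3 from 20065861 to 20092124), whose loss causes the zebrafish anemia *retsina*, encodes the band 3 protein of the membrane. It had normalized counts of 3650, 4831 and 4023 in *Tg(cmlc2:tfeb)*, 1250, 1625 and 1394 in *mtor xu015/+*, and 2039, 2472 and 2251 in WT. These were 3 separate ranges, at log2 fold changes against WT of 0.89 in *Tg(cmlc2:tfeb)* and -0.66 in *mtor xu015/+* (standard error 0.13 each). Per 1000 adult globin counts there were 15.98, 16.2 and 17.1 counts of *slc4a1a* in *Tg(cmlc2:tfeb)*, 10.5, 10.7 and 10.5 in *mtor xu015/+*, and 10.9, 11.5 and 11.9 in WT. Relative to globin, *slc4a1a* was therefore higher in every *Tg(cmlc2:tfeb)* library too.

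*cahz* (ENSDARG00000011166, chromosome 2 from 29477383 to 29485408) encodes the carbonic anhydrase of zebrafish red cells, which speeds the conversion of carbon dioxide to bicarbonate. Normalized counts of *cahz* were 4199, 6236 and 4883 in *Tg(cmlc2:tfeb)*, 2304, 2850 and 2366 in *mtor xu015/+*, and 3572, 4234 and 3282 in WT. *Tg(cmlc2:tfeb)* replicate 1 lay just under WT replicate 2, and without that *Tg(cmlc2:tfeb)* library the gene was called against WT, at 0.59 on the log2 scale, whereas without *Tg(cmlc2:tfeb)* replicate 2 it was at 0.30 and not called. All *mtor xu015/+* libraries were below the rest. Log2 fold changes against WT were 0.47 in *Tg(cmlc2:tfeb)* and -0.56 in *mtor xu015/+* (standard error 0.16 each). Per 1000 adult globin counts *cahz* had 18.4, 21.0 and 20.8 in *Tg(cmlc2:tfeb)*, 19.4, 18.7 and 17.9 in *mtor xu015/+*, and 19.1, 19.7 and 17.3 in WT. All 3 genotypes overlapped in this ratio.

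The erythroid transcription factor gene *gata1a* (ENSDARG00000013477, chromosome 11 from 25411914 to 25418856) is mutated in the bloodless zebrafish *vlad tepes*. Its normalized counts were 279, 298 and 271 in *Tg(cmlc2:tfeb)*, 206, 282 and 252 in *mtor xu015/+*, and 296, 317 and 273 in WT. All 3 genotypes overlapped, with log2 fold changes against WT of -0.06 in *Tg(cmlc2:tfeb)* (standard error 0.12) and -0.26 in *mtor xu015/+* (standard error 0.13). The second value was -0.14 without *mtor xu015/+* replicate 1. Per 1000 adult globin counts *gata1a* had 1.22, 1.002 and 1.153 in *Tg(cmlc2:tfeb)*, 1.74, 1.85 and 1.90 in *mtor xu015/+*, and 1.58, 1.47 and 1.44 in WT. In this ratio the genotypes were apart, and their order was the reverse of that of *hbaa1*. Because *gata1a* itself overlapped, this order comes mainly from the globin counts it was divided by and is no separate result.

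The gene of membrane skeleton protein 4.1, *epb41b* (ENSDARG00000029019, chromosome 16 from 26449615 to 26488169), is affected in the zebrafish anemias *merlot* and *chablis*. It had normalized counts of 1849, 1932 and 1640 in *Tg(cmlc2:tfeb)*, 1287, 2082 and 1427 in *mtor xu015/+*, and 2029, 1884 and 1675 in WT. The highest of all 9 values was in an *mtor xu015/+* library, replicate 2, and all groups overlapped. Log2 fold changes against WT were -0.04 in *Tg(cmlc2:tfeb)* and -0.22 in *mtor xu015/+* (standard error 0.17 each). The *mtor xu015/+* value was -0.46 without *mtor xu015/+* replicate 2 and -0.09 without replicate 1, and the *Tg(cmlc2:tfeb)* value lay between -0.12 and 0.02 with 1 library left out.

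Iron enters red cell precursors through the transferrin receptor encoded by *tfr1a* (ENSDARG00000101322, chromosome 2 from 4849269 to 4874966), the gene of the zebrafish anemia *chianti*. Its normalized counts were 6381, 5862 and 6953 in *Tg(cmlc2:tfeb)*, 1390, 1775 and 945 in *mtor xu015/+*, and 2137, 1826 and 1855 in WT. Every *Tg(cmlc2:tfeb)* library was far above the others, at 1.72 on the log2 scale against WT (standard error 0.20, 3.30-fold), and *mtor xu015/+* was -0.50 against WT (standard error 0.19). Without *mtor xu015/+* replicate 3 the last value was -0.29. Per 1000 adult globin counts, *tfr1a* had 27.9, 19.7 and 29.6 in *Tg(cmlc2:tfeb)*, 11.7, 11.6 and 7.14 in *mtor xu015/+*, and 11.4, 8.49 and 9.77 in WT. Relative to globin, *tfr1a* was thus also higher in *Tg(cmlc2:tfeb)*, whereas *mtor xu015/+* and WT overlapped.

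How far the members moved together was described by Pearson's r of log2 CPM with the mean of the globin members over the 9 libraries, with a globin member itself left out of that mean. The points share their libraries, their normalization and the genotype differences, so r is a description and has no p. It was between 0.82 and 0.96 for the 5 globin genes, 0.97 for *cahz*, 0.93 for *slc4a1a*, 0.92 for *alas2*, 0.78 for *tfr1a*, 0.74 for *gata1a* and 0.58 for *epb41b*. After the genotype means were taken off, *tfr1a* had an r of 0.08, against 0.94 for *slc4a1a* and 0.91 for *cahz*. It was 0.77 for *alas2*, 0.66 for *gata1a*, 0.51 for *epb41b* and between 0.65 and 0.88 for the globin genes. Within a genotype, *slc4a1a* and *cahz* therefore moved with globin from library to library, while the r of *tfr1a* was near 0. Genes outside the set, such as *smndc1* (0.99), reached higher values, so a high r was not particular to erythroid genes.

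Outside the members, the genes whose log2 CPM was most like the globin mean over the 9 libraries were *mbtps2*, a protease gene (r = 0.995), *tnfsf12*, a cytokine gene (0.989), *arf1*, a vesicle transport gene (0.965), and *si:dkey-61n16.5* (0.955). They were followed at 0.944 to 0.948 by *hmbsa*, which encodes an enzyme of heme synthesis, *add2*, which encodes adducin of the red cell membrane skeleton, *cpxm1a*, *mrpl21*, *si:ch211-5k11.8* and *si:ch211-207b24.4*. Likeness in r says nothing of the size of a difference. *mbtps2* had normalized counts of 441, 489 and 472 in *Tg(cmlc2:tfeb)*, 386, 401 and 394 in *mtor xu015/+*, and 442, 455 and 447 in WT, a far narrower range than any globin.

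Embryonic and larval globin genes, which zebrafish use before the adult ones, were mostly near the limit of counting. *hbae1.1* was listed at 0 in all 9 libraries, which allows up to 3 counts in each, and *hbbe3* and *hbae3* were at 0 in 8 of 9. *hbbe1.1*, *hbbe1.2*, *hbbe1.3* and *hbbe2* had highest normalized counts of 2.82, 3.44, 6.97 and 4.59. The *hbae1.3* gene ENSDARG00000088330, which another annotation names *hbae1.2*, had more. Its normalized counts were 31.6, 56.6 and 42.6 in *Tg(cmlc2:tfeb)*, 0 in each of the 3 *mtor xu015/+* libraries, and 8.37, 13.8 and 3.27 in WT. The *Tg(cmlc2:tfeb)* libraries were all above WT. The gene passed the filter only through them, since 1 of the other 6 libraries reached the required count, so its call in *Tg(cmlc2:tfeb)* against WT (log2 fold change 2.35, standard error 0.51) is no independent result, and it was lost without WT replicate 1 or *Tg(cmlc2:tfeb)* replicate 2. A limit of 3 counts in each *mtor xu015/+* library gives a mean of 2.97. The *Tg(cmlc2:tfeb)* mean of 43.6 was 14.7-fold and the WT mean of 8.47 was 2.85-fold above that limit. These ratios leave out the spread within *Tg(cmlc2:tfeb)* and WT, and WT replicate 3, at 3.27, was close to the limit. In *mtor xu015/+* against WT, edgeR gave a Benjamini-Hochberg adjusted p = 0.32 and DESeq2 called the gene.

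The second *hbae1.3* gene, ENSDARG00000089124, had normalized counts of 9.40, 45.3 and 16.8 in *Tg(cmlc2:tfeb)*, 4.42, 5.57 and 15.02 in *mtor xu015/+*, and 12.6, 0 and 3.27 in WT. Its groups overlapped in all comparisons. *hbae5*, on chromosome 12, had 14.5, 25.3 and 19.1 in *Tg(cmlc2:tfeb)*, 4.42, 2.79 and 6.57 in *mtor xu015/+*, and 12.6, 6.89 and 7.63 in WT. All *Tg(cmlc2:tfeb)* libraries were above all others, at 2.06 on the log2 scale against *mtor xu015/+* (standard error 0.45), and it too passed the filter only through *Tg(cmlc2:tfeb)*. *zgc:163057*, which RefSeq names *hbae4*, had 136, 138 and 139 in *Tg(cmlc2:tfeb)*, 124, 194 and 175 in *mtor xu015/+*, and 191, 199 and 177 in WT. Alone among these genes it was lower in all *Tg(cmlc2:tfeb)* libraries than in WT, by -0.45 on the log2 scale (standard error 0.16, edgeR, Benjamini-Hochberg adjusted p = 0.0739).

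Other genes of the erythroid, heme and iron pathways were taken from 9 lists that were likewise drawn up with earlier results known. The p-values printed for genes of these lists are therefore descriptions too. They hold 96 genes with values, of which 85 were tested. In *Tg(cmlc2:tfeb)* against WT, 8 were called higher (9.41% of the 85) and 4 lower (4.71%), close to the 7.41% and 7.49% of all tested genes, and the median log2 fold change was 0.07. In *mtor xu015/+* against WT, edgeR called 0 of the 85, while 15 (17.6%) had an unadjusted p under 0.05 against 7.86% of all tested genes, DESeq2 called 1, limma-voom called 0, and the median was -0.06. *Tg(cmlc2:tfeb)* against *mtor xu015/+* had 15 called higher (17.6%) and 5 lower (5.88%), beside 8.09% and 7.95% of all tested genes, with a median of 0.12. Without *Tg(cmlc2:tfeb)* replicate 2 the total fell to 6 in the first comparison and to 12 in the last, and without *mtor xu015/+* replicate 3 it was 13 in the last. Among the genes called higher against WT, *hbae1.3* (ENSDARG00000088330) and *epob* passed the filter only through *Tg(cmlc2:tfeb)*. Among those called higher against *mtor xu015/+*, *hbae1.3* and *hbae5* did so. These were tested only through the group in which they are high, so their calls are no independent result.

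**Figure D5:**
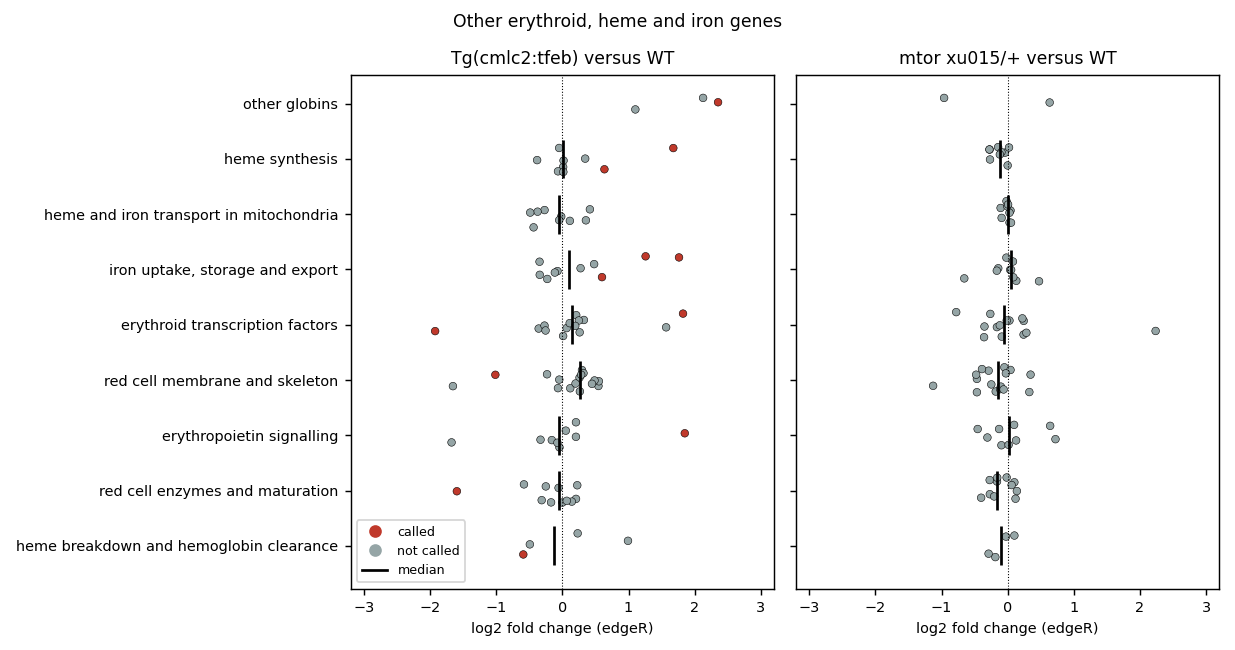
Log2 fold change (horizontal axes) of the genes tested in each of 9 lists, for *Tg(cmlc2:tfeb)* against WT on the left and *mtor xu015/+* against WT on the right. Red points are genes called by edgeR, grey points are genes that were not called, and black lines are medians of lists with more than 3 genes. The *hbae1.3* gene at 0 in *mtor xu015/+* is left out on the right, where no gene is called.

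In the heme synthesis list, 2 of 9 genes (22.2%) were called higher in *Tg(cmlc2:tfeb)* against WT and 0 lower, beside 7.41% and 7.49% of all tested genes. *alas1*, the housekeeping counterpart of *alas2*, had normalized counts of 38105, 31102 and 43999 in *Tg(cmlc2:tfeb)*, 11325, 11326 and 9369 in *mtor xu015/+*, and 11079, 9984 and 14334 in WT (log2 fold change against WT 1.68 in *Tg(cmlc2:tfeb)*, standard error 0.17, edgeR, Benjamini-Hochberg adjusted p = 0.000258). *fech*, which encodes the enzyme that inserts iron into protoporphyrin, had 407, 403 and 374 in *Tg(cmlc2:tfeb)*, 275, 265 and 202 in *mtor xu015/+*, and 263, 265 and 234 in WT (0.64, standard error 0.12, edgeR, Benjamini-Hochberg adjusted p = 0.00679). The *fech* call was lost without WT replicate 3. The median log2 fold change of the list was 0.01. The 7 genes not called ranged from -0.38 for *uros*, which was lower in every *Tg(cmlc2:tfeb)* library, to 0.35 for *alad*, which was higher in every one. Unlike *alas2*, neither *alas1* nor *fech* was set apart between *mtor xu015/+* and WT, where *alas1* was at -0.14 and *fech* at -0.04.

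For iron uptake, storage and export, 3 of 10 genes (30%) were called higher in *Tg(cmlc2:tfeb)* against WT and 0 lower. Of all tested genes, 7.41% were called higher and 7.49% lower there. The transferrin receptor gene *tfr1b*, the paralogue of *tfr1a*, had normalized counts of 7859, 7728 and 11166 in *Tg(cmlc2:tfeb)*, 1653, 2019 and 1328 in *mtor xu015/+*, and 2643, 2434 and 2801 in WT (1.76, standard error 0.18, edgeR, Benjamini-Hochberg adjusted p = 0.000308). *tfr2*, a receptor that senses transferrin, rose by 1.26 (standard error 0.32, edgeR, Benjamini-Hochberg adjusted p = 0.0204), a call lost without WT replicate 2 or 3 or *Tg(cmlc2:tfeb)* replicate 2. *steap3*, which reduces iron after its uptake, was at 0.60 (standard error 0.19, edgeR, Benjamini-Hochberg adjusted p = 0.0495), and its call held in 8 of 19 alternative fits. It was lost with DESeq2 and limma-voom, with no filter, with only the 2 groups fitted, and without any library but *mtor xu015/+* replicate 1 and *Tg(cmlc2:tfeb)* replicate 1. The ferritin genes *fth1a* and *fth1b* had -0.07 and -0.23 and the iron exporter *slc40a1* had -0.34, none of them called. *tfr1b* was also lower in all *mtor xu015/+* libraries than in WT, at -0.66 (standard error 0.18, edgeR, Benjamini-Hochberg adjusted p = 0.478).

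Among 14 erythroid transcription factor genes, 1 was called higher and 1 lower in *Tg(cmlc2:tfeb)* against WT. Each is 7.14% of the list, near the 7.41% and 7.49% of all tested genes. *runx1*, which directs blood stem cell formation, had normalized counts of 29.1, 25.3 and 23.5 in *Tg(cmlc2:tfeb)*, 39.8, 54.8 and 77.9 in *mtor xu015/+*, and 90.0, 83.8 and 123 in WT. It fell by 1.92 on the log2 scale in *Tg(cmlc2:tfeb)* (standard error 0.28, edgeR, Benjamini-Hochberg adjusted p = 0.00168). *gata1b*, the second *gata1* gene of the fish, had 89.8, 42.7 and 67.2 in *Tg(cmlc2:tfeb)*, 8.84, 31.6 and 25.4 in *mtor xu015/+*, and 6.28, 19.5 and 30.5 in WT (1.82, standard error 0.57, edgeR, Benjamini-Hochberg adjusted p = 0.0462). Its call held in 11 of 19 alternative fits and was lost with any *Tg(cmlc2:tfeb)* library left out, with WT replicate 1 or 2 or *mtor xu015/+* replicate 2 or 3 left out, and with a replicate block. *klf1*, a regulator of adult globin genes, had log2 fold changes of 0.01 in *Tg(cmlc2:tfeb)* and -0.36 in *mtor xu015/+* against WT, and *tal1* had -0.25 and -0.35, without a call.

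Red cell membrane and skeleton genes gave 0 called higher and 1 lower (6.25%) of 16 in *Tg(cmlc2:tfeb)* against WT, beside 7.41% and 7.49% of all tested genes. The one that fell was *tmod1*, an actin-capping protein gene of the red cell skeleton that heart muscle also uses in its sarcomeres, with normalized counts of 2229, 1717 and 2643 in *Tg(cmlc2:tfeb)*, 3997, 4865 and 3870 in *mtor xu015/+*, and 4633, 4230 and 4425 in WT (-1.01, standard error 0.15, edgeR, Benjamini-Hochberg adjusted p = 0.00189). Against *mtor xu015/+*, 6 of the 16 were called higher (37.5%) and 1 lower (6.25%) in *Tg(cmlc2:tfeb)*, beside 8.09% and 7.95% of all tested genes. The red cell ammonia channel gene *rhag* had 969, 1027 and 1001 in *Tg(cmlc2:tfeb)*, 612, 670 and 623 in *mtor xu015/+*, and 840, 915 and 739 in WT. All 3 genotypes were thus apart, in the order of *hbaa1*. *rhag* did not pass the test against WT (0.26 in *Tg(cmlc2:tfeb)*, edgeR, Benjamini-Hochberg adjusted p = 0.0639). *slc4a1b*, the paralogue of *slc4a1a*, had 34.2, 28.7 and 42.6 in *Tg(cmlc2:tfeb)*, 12.2, 12.1 and 14.1 in *mtor xu015/+*, and 28.3, 28.7 and 27.3 in WT. Its level was low in all *mtor xu015/+* libraries.

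In the remaining lists, *epob*, a second erythropoietin gene, had 14.5, 24.4 and 25.8 in *Tg(cmlc2:tfeb)*, 6.63, 6.50 and 15.96 in *mtor xu015/+*, and 2.09, 6.89 and 8.72 in WT. It is among the 8 genes called higher, but only 1 library outside *Tg(cmlc2:tfeb)* reached the count the filter asks for, so it was tested only through the group in which it is high. Its call held in 10 of 18 alternative fits and was lost with no filter, without any WT library, without *mtor xu015/+* replicate 1 or 2, and without *Tg(cmlc2:tfeb)* replicate 2 or 3. *bpgm*, whose mammalian counterpart makes the bisphosphoglycerate that loosens oxygen from hemoglobin, had 1197, 1585 and 2379 in *Tg(cmlc2:tfeb)*, 3050, 4936 and 4925 in *mtor xu015/+*, and 7283, 3929 and 4360 in WT, and fell by 1.59 (standard error 0.31, edgeR, Benjamini-Hochberg adjusted p = 0.00692). *hmox1a*, the heme-degrading oxygenase gene, fell by 0.59 (standard error 0.16, edgeR, Benjamini-Hochberg adjusted p = 0.0263), and its call held in 10 of 19 alternative fits. It was lost without WT replicate 1 or any *Tg(cmlc2:tfeb)* library, with limma-voom, with upper quartile or no normalization factors, with a filter of 1 CPM in 3 libraries and with a replicate block. In *mtor xu015/+* against WT the groups overlapped for both, at -0.27 for *bpgm* and 0.10 for *hmox1a*.

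Globins outside the red cell went in different directions. Myoglobin, *mb*, which stores oxygen in heart muscle, had normalized counts of 567665, 574837 and 646572 in *Tg(cmlc2:tfeb)*, 832905, 826806 and 862476 in *mtor xu015/+*, and 930957, 838672 and 852066 in WT. It was lower in every *Tg(cmlc2:tfeb)* library, at -0.55 against WT (standard error 0.08, edgeR, Benjamini-Hochberg adjusted p = 0.00137), which is under the 1.5-fold limit. The cytoglobin gene *cygb1* had 551, 533 and 684 in *Tg(cmlc2:tfeb)*, 314, 304 and 349 in *mtor xu015/+*, and 355, 475 and 373 in WT (0.55 in *Tg(cmlc2:tfeb)* against WT, standard error 0.14, edgeR, Benjamini-Hochberg adjusted p = 0.0192), also under that limit. The 3 genotypes were apart for *cygb1*, in the order of *hbaa1*. Both *mb* and *cygb1* were named after their values were seen, so their p-values are descriptions only.

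Markers of other cells in the samples were set beside these results. Whether the genes of a list are confined to the cell it is named after was not tested. Over all tested genes, 7.41% were called higher and 7.49% lower in *Tg(cmlc2:tfeb)* against WT, and 8.09% and 7.95% against *mtor xu015/+*. With so few genes in a list, nothing is read from its number of calls. Thrombocyte markers, which come from another nucleated cell of fish blood, gave 0 calls among 5 tested genes in any comparison by edgeR. Their summed normalized count was 1504 to 1649 in *Tg(cmlc2:tfeb)*, 1661 to 1971 in *mtor xu015/+* and 1782 to 2064 in WT, and *fga* was at 0 in 6 of 9 libraries. Lymphocyte markers likewise gave 0 calls among 6 tested genes and summed to 61.6 to 87.2, 67.6 to 78.5 and 53.4 to 91.9 in *Tg(cmlc2:tfeb)*, *mtor xu015/+* and WT. The thrombocyte sum was lower in every *Tg(cmlc2:tfeb)* library than in WT. There 1 gene, *gp1bb*, was without overlap (-0.46, edgeR, Benjamini-Hochberg adjusted p = 0.0366), under the 1.5-fold limit, while *mpl* was at 0.15. *mtor xu015/+* overlapped with WT in both lists. At an unadjusted p under 0.05 there were 1, 0 and 1 thrombocyte markers in *Tg(cmlc2:tfeb)* against WT, *mtor xu015/+* against WT and *Tg(cmlc2:tfeb)* against *mtor xu015/+*, and 0 lymphocyte markers. Of all tested genes, 35.7%, 7.86% and 37.5% had such a p in the same comparisons. Other tools were not run on the marker lists. The 7 endothelial markers summed to 34230 to 35560 in *Tg(cmlc2:tfeb)*, 30822 to 33748 in *mtor xu015/+* and 30454 to 34380 in WT. Their genes went in different directions. In *Tg(cmlc2:tfeb)* against WT, 2 were higher in all libraries, among them *fli1a* (0.31), and 2 lower, among them *flt1* (-0.40), without a call. Against *mtor xu015/+*, *flt1* was called lower (-0.59). Macrophage markers summed to 6678 to 8559 in *Tg(cmlc2:tfeb)*, 7216 to 9363 in *mtor xu015/+* and 6887 to 9040 in WT. Among 8 of them *marco* was called lower (-1.29) in *Tg(cmlc2:tfeb)* against WT. *mpeg1.2* went the other way there, higher in all *Tg(cmlc2:tfeb)* libraries (1.55) but not called. Against *mtor xu015/+*, *mpeg1.2* was called higher (2.68) and *marco* lower (-0.88).

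Genes listed as ventricular cardiomyocyte markers summed to 1282510 to 1493410 in *Tg(cmlc2:tfeb)*, below the 1760230 to 2000530 of *mtor xu015/+* and the 1783070 to 1934380 of WT. Of 8 names listed, 5 were found and tested, while *vmhc*, *vmhcl* and *pln* were not found. Whether the 5 are confined to the ventricle was not tested. Among them *cmlc1* was called lower (-0.74) in *Tg(cmlc2:tfeb)* against WT. In that list *myl7* was at -0.25 and *ttn.2* at -0.07, while *ryr2b*, at 0.28, was higher in all *Tg(cmlc2:tfeb)* libraries. *tnnt2a* had 226637, 42000 and 44694 in *Tg(cmlc2:tfeb)* and 186731 to 254003 in the other 6 libraries. *Tg(cmlc2:tfeb)* replicate 1 thus stood apart from its group there, as it did for *hbaa2* and *hbba2*. Neutrophil markers summed to 1035 in *mtor xu015/+* replicate 1, the library with the lowest count of most members in its group, and to between 387 and 740 in the other 8 libraries. Of 7 tested, *mmp9* was called higher (1.04) and *cpa5* lower (-1.01) in *Tg(cmlc2:tfeb)* against WT. Against *mtor xu015/+*, *mmp9* was called higher (1.43), and *cpa5* (-1.39) and *npsn* (-1.90) lower. Epicardial markers summed to 1987 to 2422 in *Tg(cmlc2:tfeb)*, 1527 to 2023 in *mtor xu015/+* and 1467 to 1645 in WT, with *tcf21* called higher (0.63) among 4 in *Tg(cmlc2:tfeb)* against WT. Outflow smooth muscle markers summed to 2626 to 3390 in *Tg(cmlc2:tfeb)*, 6162 to 7183 in *mtor xu015/+* and 5967 to 7124 in WT, where *acta2* was called lower (-2.95) and none of the other 4 was. Of 3 genes listed as atrial markers, *nppa* was called lower (-0.59) in *Tg(cmlc2:tfeb)* against WT, and their sums overlapped. *tbx5a*, at 0.41, was higher in all *Tg(cmlc2:tfeb)* libraries than in WT, without a call. *myh6*, at 0.45 and not called, had 46764, 7774 and 3938 in *Tg(cmlc2:tfeb)* and 7742, 4315 and 30864 in WT. In *mtor xu015/+* it had 6707, 5633 and 8923. *Tg(cmlc2:tfeb)* replicate 1 and WT replicate 3 thus stood far above their groups for *myh6*, and the cause was not tested. The part of these differences in the levels of the erythroid genes was not tested.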

How the data were processed

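RNA from 9 pools of ventricles was compared between genotypes, with groups from the sample labels and columns assigned by their names. The authors deposited an estimated count per gene and library. Their methods name TopHat and Cufflinks, and the submitters' processing notes name bcl2fastq 2.17, Trimmomatic 0.36, STAR 2.5.2b and GRCz11. The column names carry the tag scaledTPM, so each count may be a rescaled abundance, and only 58.5% of those from 0.5 to 5.5 were within 0.1 of an integer.

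Counts were rounded, filtered with filterByExpr, normalized with TMM (factors 0.946 to 1.08) and fitted over all 9 libraries with the quasi-likelihood test of edgeR 4.0.16 in R 4.3.3, with Benjamini-Hochberg adjustment over 21216 genes. The fits were tested on simulated data. Totals of 35440229 to 45273885 per library made counting error small except for genes at a few counts. With 3 libraries against 3, an exact permutation test cannot go below p = 0.10. Nothing in the labels says how the 3 pools of a genotype were formed beyond pooling, so the spread may be partly technical.

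The members and the gene lists were chosen with earlier results of these data known. Named are all members, all genes named hba or hbb, genes of a list called against WT (at most 5 per list), the 10 genes with the highest r with the globin mean (before and after the genotype means were taken off), and *mtor* and *tfeb*. Other genes that are named (*uros*, *alad*, *fth1a*, *fth1b*, *slc40a1*, *klf1*, *tal1*, *rhag*, *slc4a1b*, *mb*, *cygb1*, *nprl3*, *kank2*, *zgc:163057* and the marker genes) were chosen after their values were seen. Where a p-value is printed for one of these, it is a description and no independent result. Alternatives were DESeq2 1.42.0, limma-voom (limma 3.58.1), other normalizations and filters, only the 2 groups compared, a replicate block, no fold threshold, and each library left out.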

Additional observations from a re-analysis of the deposited data

How the results depend on the processing

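The medians of the 11 members moved by less than 1 SD between replicates under every alternative. No called member, and no list gene called against WT, changed direction in the comparison in which it was called. Other values did change sign with 1 library left out. In *Tg(cmlc2:tfeb)* against WT these included *hbaa2* (-0.12 to 0.31) and *hbba2* (-0.08 to 0.30). The *hbba1* copy ENSDARG00000097238 (-0.10 to 0.10) and *si:ch211-5k11.8* (-0.10 to 0.12) did so too. In *mtor xu015/+* against WT they included *bpgm* (-0.44 to 0.06). Alternatives for single genes were run only for the members, the tested globins and the list genes called against WT. With each library left out in turn, the median log2 fold change was 0.24 to 0.43 in *Tg(cmlc2:tfeb)* against WT, -0.66 to -0.50 in *mtor xu015/+* against WT and 0.86 to 1.16 in *Tg(cmlc2:tfeb)* against *mtor xu015/+*, with 3 to 5, 0 and 8 to 9 members called, and with 6 to 13, 0 and 12 to 21 of the other erythroid genes called. The difference in hemoglobin share was then 0.124 to 0.201, -0.129 to -0.0995 and 0.239 to 0.316 percentage points in the same comparisons. Without the fold threshold, 24 and 39 of the other genes were called in *Tg(cmlc2:tfeb)* against WT and against *mtor xu015/+*. DESeq2 called 3 members and 1 other gene in *mtor xu015/+* against WT, where edgeR called 0, and 68 genes in all against 5, and the cause was not tested. The hemoglobin share differed by -0.115 points there, by -0.142 with mitochondrial genes out of the total and by -0.153 with the 2 further RefSeq globins, since the first lowers the total and the second adds counts. Same-numbered libraries of different genotypes had correlations of deviations from -0.02 to 0.09, so over all tested genes the numbers showed no pairing. The hemoglobin share, *hbaa1*, both *hbba1* copies, *hbba2*, *slc4a1a*, *cahz* and *gata1a* were nevertheless highest in replicate 2 of every genotype. So was *si:ch211-5k11.8*, while for *hbba2* WT replicates 2 and 3 were nearly equal. A pairing limited to such genes was not tested. With the replicate block 4, 0 and 9 members and 12, 0 and 19 other genes were called. Depth limits only genes at a few counts, such as the embryonic globins.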

Other observations

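After genotype means were taken off, the 10 genes with the highest r with the globin mean over the 9 libraries were ENSDARG00000111197 (0.99), *gpam* (0.99), *smndc1* (0.99), *llgl1* (0.98), *abl2* (0.97), *nfil3-3* (0.97), *mbtps2* (0.97), *camkmt* (0.96), *slc16a13* (0.96) and *ppcdc* (0.95). Of these, *mbtps2* was also among the 10 most alike before the means were taken off, where *abl2* had an r of -0.18 and *nfil3-3* of -0.29. *gpam*, which encodes the first enzyme of glycerolipid synthesis, had normalized counts of 1436, 2145 and 1786 in *Tg(cmlc2:tfeb)*, 960.3, 1220 and 1079 in *mtor xu015/+*, and 1151, 1274 and 1112 in WT. It was called higher in *Tg(cmlc2:tfeb)* against WT (log2 fold change 0.60, standard error 0.15, edgeR, Benjamini-Hochberg adjusted p = 0.0177), and alternatives were not run for it. In all 3 genotypes *gpam* was highest in replicate 2, as *hbaa1* was. Because *gpam* was picked by its r with the globin mean, this likeness is no separate result.

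The genes that flank the globin genes of chromosome 3 did not share the differences of the adult globins. *nprl3* had normalized counts of 345, 364 and 384 in *Tg(cmlc2:tfeb)*, 345, 348 and 366 in *mtor xu015/+*, and 404, 431 and 330 in WT, with overlap in all comparisons. *kank2*, on the other side, had 2662, 2946 and 2333 in *Tg(cmlc2:tfeb)*, 3818, 3886 and 3070 in *mtor xu015/+*, and 3637, 3506 and 3350 in WT. It was lower in all *Tg(cmlc2:tfeb)* libraries, at -0.40 against WT (standard error 0.11, edgeR, Benjamini-Hochberg adjusted p = 0.0336), under the 1.5-fold limit.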
